A study of Homo sapiens with 24 samples.

Results

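The genes described here are nuclear-encoded subunits, close copies and a few associated factors of the 5 respiratory complexes of mitochondria, chosen by gene symbol alone: NDUFA, NDUFB, NDUFC, NDUFS and NDUFV followed by a number, SDHA to SDHD, the UQCR genes, COX4 to COX8, and the ATP5 genes. The patterns found 79 genes among the 16795 listed in at least 1 of 4 cell line tables: 34 of complex I, 4 of complex II, 10 of complex III, 11 of complex IV and 20 of complex V. Of these, 78 were listed in all 4 tables, and ATP5MGL, a copy of an ATP synthase subunit gene, was listed in H209 alone. The set includes 1 processed pseudogene, UQCRBP1, and a further copy gene, UQCRHL. The ATP5 pattern also took in associated factors such as ATP5S, coupling factor B, which are counted with complex V. NDUFA3, NDUFA6 and the alternative isoforms COX4I2, COX6A2, COX6B2, COX7A1, COX7B2 and COX8C were not analysed here. NDUFA4 carries a complex I name but is counted with complex IV, where its protein sits.

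Total RNA was sequenced from 4 established human small-cell lung cancer lines, a neuroendocrine tumour type. H187 and H209 are the ISL1-high lines of the design, and H82 and SHP-77 the ISL1-low lines. ISL1 is a LIM homeodomain transcription factor. Each line received 0.1 nM lurbinectedin, a drug that alkylates DNA and stalls RNA polymerase II, or the DMSO vehicle alone for 24 h, in 3 replicates per group and 24 libraries in all. The design asks whether the response differs between ISL1-high and ISL1-low lines, and each class is 2 lines.

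Oxidative phosphorylation couples electron transport to ATP synthesis at the inner mitochondrial membrane. Complex I takes electrons from NADH and complex II from succinate. Complex III passes them from ubiquinol to cytochrome c, and complex IV passes them on to oxygen. Complexes I, III and IV pump protons, and complex V, the ATP synthase, uses the gradient. Most subunits are encoded in the nucleus, while a few subunits at the membrane core of complexes I, III, IV and V are encoded in mitochondrial DNA and are not among the genes here. The nuclear subunits comprise core subunits that carry the redox or catalytic centres and small accessory subunits that surround them. NRF1 and the ETS factor GABP are textbook regulators of their promoters.

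Promoters are shown for 4 members, because COX5B and ATP5ME hold the letters bound by NRF1, and NDUFA2 and NDUFA13 are the members that lurbinectedin moved in opposite directions in different lines. Each run covers the 150 bases before and the 30 bases after the RefSeq start (GRCh38.p14), 5′ to 3′ on the strand of the gene. Capitals mark exact matches on either strand. The letters searched were GCATGCGC for NRF1, CCGGAAG for the ETS family, AAGATGGC for the factor YY1, GGGCGG for the factor SP1 and TATAAA for the TATA box. COX5B is at chr2:97645912-97646091 on the forward strand, ATP5ME at chr4:674247-674426 on the reverse, NDUFA2 at chr5:140647601-140647780 on the reverse and NDUFA13 at chr19:19516075-19516254 on the forward.
COX5B: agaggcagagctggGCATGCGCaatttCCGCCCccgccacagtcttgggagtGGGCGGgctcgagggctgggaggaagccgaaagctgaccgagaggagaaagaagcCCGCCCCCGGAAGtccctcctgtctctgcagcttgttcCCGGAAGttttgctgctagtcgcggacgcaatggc
ATP5ME: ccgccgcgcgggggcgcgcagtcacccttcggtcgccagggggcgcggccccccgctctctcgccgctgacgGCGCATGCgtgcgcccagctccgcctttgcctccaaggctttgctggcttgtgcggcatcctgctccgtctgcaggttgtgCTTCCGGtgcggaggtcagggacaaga
NDUFA2: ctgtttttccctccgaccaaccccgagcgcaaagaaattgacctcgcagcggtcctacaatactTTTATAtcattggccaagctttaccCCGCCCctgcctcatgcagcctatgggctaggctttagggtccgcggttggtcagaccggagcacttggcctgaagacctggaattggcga
NDUFA13: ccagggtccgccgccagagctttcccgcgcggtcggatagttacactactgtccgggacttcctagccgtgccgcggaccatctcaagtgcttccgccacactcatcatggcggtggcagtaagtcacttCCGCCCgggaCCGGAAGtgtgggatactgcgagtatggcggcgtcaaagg

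COX5B had the NRF1 letters at -136 and ETS letters at -37 and -5 relative to the start, where its SP1 match at -43 lay next to the first ETS match. In ATP5ME the NRF1 letters began at -78. NDUFA13 had ETS letters at -10, and NDUFA2 had neither NRF1 nor ETS letters but a TATA match at -86. A RefSeq promoter of 300 bases was found for 62 of the 79 members. A gene was counted where any of its promoters held the letters. NRF1 letters were found for 21.0% of these members, against 6.99% of 8659 other genes listed in all 4 tables. Of all genes with a promoter, 3.68% had them. For ETS the shares of members, other listed genes and all genes were 33.9%, 24.3% and 12.2%, and for YY1 16.1%, 7.32% and 3.52%. For SP1 they were 66.1%, 79.0% and 48.3%, and for TATA 9.68%, 7.52% and 14.0%. These are matches of letters, given as a description.

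Library totals were 24226553 to 36415190 counts, and the members together took 0.716% to 1.01% of them. No 2 libraries held identical counts. Of 10 neuroendocrine markers, 8 or 9 were listed in each line, CHGA in none and NEUROD1 not in SHP-77. Their sum went from 3300 to 3406 CPM (counts relative to the scaled library total) under DMSO to 2999 to 3084 CPM under lurbinectedin in H187, with no overlap, and the ranges overlapped in H209 (2574 to 2737 and 2595 to 2621). The summed epithelial markers EPCAM, KRT8, KRT18 and CDH1 went from 1265 to 1314 down to 1206 to 1249 CPM in H187 and from 2408 to 2532 down to 2244 to 2294 CPM in H209, also with no overlap. In SHP-77 they stood at 764 to 771 CPM under DMSO and 778 to 798 when treated, and in H82 at no more than 1.33. CDH1 was not listed in SHP-77, and KRT8, KRT18 and CDH1 were not listed in H82, so those sums leave them out. Epithelial markers were thus lower in the treated libraries of H187 and H209, and neuroendocrine markers in those of H187, the lines where many members fell, and their part in that result was not tested. The lists for blood, fibroblasts and endothelium each summed to at most 9.58 CPM in every library. The data are bulk RNA, so fewer cells of a kind and less RNA per cell cannot be told apart. Levels below are CPM on 1 scaling of all 24 libraries. Levels and fold changes are thus relative to the other genes of the libraries and do not give the amount of RNA per cell. Each fold change is a log2 value ± the standard error (SE) from edgeR's quasi-likelihood fit, and a gene was called at a Benjamini-Hochberg adjusted p under 0.05 over all genes of its comparison.

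Under DMSO the 4 lines expressed the respiratory genes at total levels that differed by line. The members summed to 10899 ± 385 CPM in H82, 10024 ± 183 in SHP-77, 9487 ± 282 in H187 and 7734 ± 155 in H209 (mean ± SD, n = 3 each). H209 was thus the lowest line, and it was also the lowest for the summed levels of each of the 5 complexes. Of the 78 shared members, 28 were lowest in H209 and 28 highest in H82. The complex IV genes did not follow that order, since 7 of 11 were highest in H187 and the complex summed to 2252 ± 120 CPM there, against 1750 ± 68.5 in H82. The highest line stood a median of 1.86-fold over the lowest line, 33 members spanned more than 2-fold, and 15 less than 1.5-fold. In 37 members every pair of neighbouring lines differed by the test.

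UQCRH, the hinge subunit of complex III that docks cytochrome c, had the widest range of the set. It read 208, 230 and 231 CPM in the H82 libraries, 154, 131 and 139 in SHP-77, 107, 99.4 and 106 in H187, and 34.5, 31.5 and 34.7 in H209, and no 2 lines overlapped. UQCRHL, a copy gene without introns, ran in the same order at 7.99 ± 1.04, 4.96 ± 0.507, 3.65 ± 0.116 and 1.59 ± 0.261 CPM. Reads shared between such near-identical copies may be split by the counting, so the level of UQCRHL is uncertain. NDUFA9, an accessory subunit at the quinone-reducing module of complex I, stood at 366 ± 23.6 CPM in H82, 101 ± 6.25 in H187, 78.4 ± 2.98 in H209 and 57.9 ± 0.673 in SHP-77. SDHB, the iron-sulfur subunit of succinate dehydrogenase, ranged from 159 ± 4.72 CPM in H82 to 35.5 ± 1.16 in H209, while SDHA, the flavoprotein that oxidises succinate, had its lowest level in H82 (95.7 ± 0.924 CPM against 211 to 248 in the other lines). The SDHA levels of SHP-77 and H209 did not differ beyond their spread in the test.

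In the ATP synthase, ATP5MC1 and ATP5MC3, which encode the same c subunit of the proton-driven ring, differed in their line order. ATP5MC3 stood at 386 ± 21.2 CPM in H82 against 150 ± 2.72, 124 ± 8.56 and 110 ± 5.26 in H209, H187 and SHP-77. ATP5MC1 was low in H209 (41.0 ± 1.09 CPM) and stood at 109 to 150 CPM in the others. ATP5ME, a small membrane subunit at the dimer interface, was highest in H187 at 63.4 ± 5.47 CPM and lowest in SHP-77 at 15.3 ± 0.970, and COX7B of complex IV was highest in H82 at 158 ± 16.9 and lowest in H209 at 46.2 ± 1.28. H82 was the highest line for 7 of the 8 members of widest range, and H209 the lowest for 5.

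**Figure D1:**
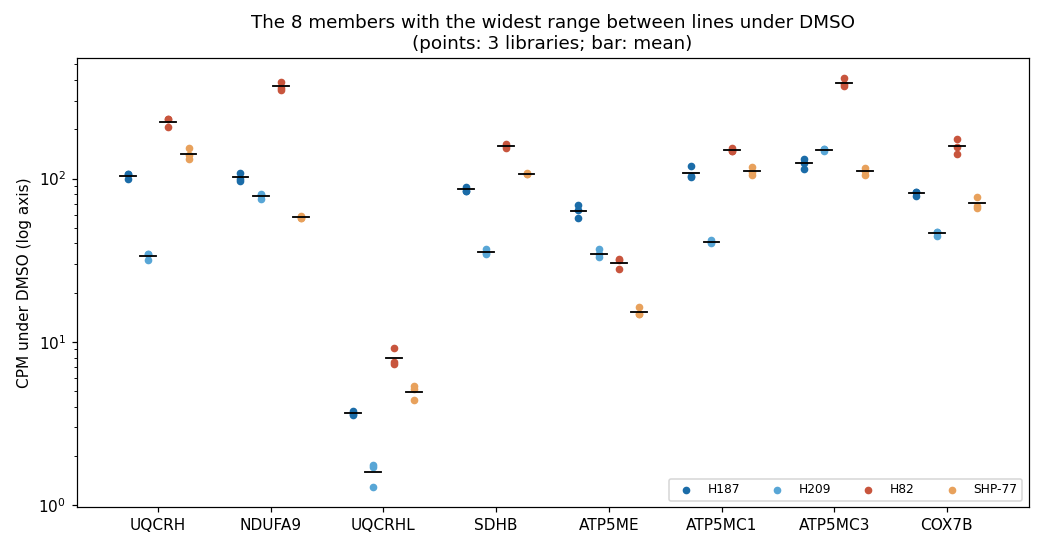
CPM under DMSO on a log axis for the 8 members with the widest range between lines, with 3 libraries per line as points and their mean as a bar. H82 is highest for UQCRH, NDUFA9, UQCRHL, SDHB, ATP5MC1, ATP5MC3 and COX7B, and H187 for ATP5ME.

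Per kb of exonic length, members in all 4 tables were ordered by their mean over the lines under DMSO, an order that need not hold in each line. ATP5F1B, the catalytic beta subunit, had the highest mean, at 413 CPM per kb in H209 to 725 in SHP-77. COX6A1 had the highest mean of complex IV (398 to 801 CPM per kb) and stood above ATP5F1B in H187. The highest means were those of NDUFA13 in complex I (165 to 343), UQCRH in complex III (43.5 to 289) and SDHB in complex II (30.9 to 138). The lowest means of each complex were those of NDUFA10 (7.00 to 13.6 CPM per kb), SDHC (42.7 to 77.2), UQCRBP1 (1.02 to 1.91), COX6C (63.0 to 131) and ATP5S (4.70 to 6.20), the last being coupling factor B, and in H209 SDHC stood above SDHB. The F1 epsilon subunit gene ATP5F1E was listed at 9.01 to 18.2 CPM per kb, against 61.4 to 87.9 for ATP5F1D, the next lowest F1 gene. Whether the counting splits its reads with a copy elsewhere was not tested, so its level is uncertain. The length is that of all annotated exons merged, so a gene with long alternative exons, such as NDUFA10 with 9730 bases, reads low per kb.

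Between the ISL1-high and ISL1-low lines, 28 of 78 members were higher and 43 lower, beside 45.3% higher and 43.8% lower of all 11408 genes tested. The median difference was -0.17 over members and 0.01 over all genes (log2). After the correction for exonic length the counts were 35 higher and 33 lower, with a median of -0.02, so the members show no direction between the classes that holds under that correction. The class difference was -1.59 ± 0.04 for UQCRH (SE, edgeR adjusted p = 1.1e-24), -1.24 ± 0.03 for SDHB and 1.12 ± 0.05 for ATP5ME. The test averages the 2 lines of each class and treats them as fixed. Its SE and p-value thus measure the spread between replicate libraries and describe these lines only. They do not show that the lines of a class are alike. Of 20 complex V genes, 19 were testable and 13 were lower in the ISL1-high lines. Any 2 lines differed about as often: 91.0% of members were called between H187 and H209 (86% of all genes), 91.0% between H187 and H82 (88.8%), 87.2% between H187 and SHP-77 (88.2%), 87.2% between H209 and H82 (88.8%), 85.9% between H209 and SHP-77 (87.2%) and 85.9% between H82 and SHP-77 (88.8%). These shares are near those of all genes, and H187 differed from H209, the other ISL1-high line, in as large a share of members as from H82.

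Lurbinectedin lowered respiratory genes in H187 and H209 and moved few of them in H82 and SHP-77. In H209, 54 of 79 members fell and 0 rose, with a median log2 fold change of -0.16, or -10.7% in relative level. Over all 14421 genes tested there, 22.5% were lower, 22.7% higher, and the median was 0.00. In H187, 24 of 78 fell and 2 rose (median -0.11, or -7.22%), beside 12.7% lower and 12.2% higher of all genes. In H82, 3 members rose and 0 fell (median 0.05) beside 1.55% higher and 1.38% lower of all genes. In SHP-77, 1 rose and 1 fell (median 0.01) beside 1.98% and 3.21%. The changes were small per gene but common in the ISL1-high lines: the members summed to 7053 ± 68.0 CPM in treated H209 against 7734 ± 155, and to 8802 ± 212 CPM in treated H187 against 9487 ± 282, and treated and control libraries did not overlap in either line. In H82 (10899 ± 385 to 11027 ± 271) and SHP-77 (10024 ± 183 to 9898 ± 182) they overlapped.

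**Figure D2:**
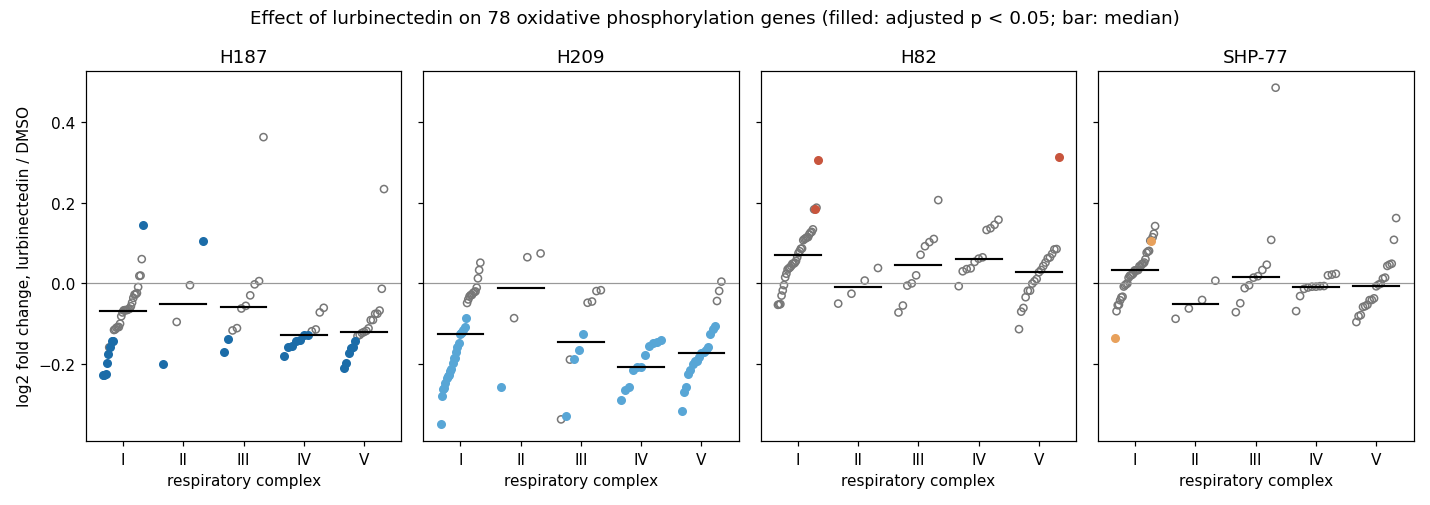
Log2 fold change of 78 members by lurbinectedin, by line and respiratory complex, with filled points for adjusted p under 0.05 and a bar at the median. The points of complex IV lie below 0 in both H187 and H209, with medians of -0.13 and -0.21, and spread around 0 in SHP-77.

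In complex I, most genes that fell were accessory subunits, which make up 27 of its 34 genes. In H209, 21 of 27 accessory genes fell (median -0.16), against 1 of 7 core genes (median -0.03), the one being NDUFV2 at -0.26, a flavoprotein subunit with an iron-sulfur centre. NDUFV1, which holds the flavin, and NDUFS1, NDUFS7 and NDUFS8, which hold iron-sulfur centres, were called in no line, and neither was NDUFS3. By position, 16 of 19 membrane arm genes fell in H209 (84.2%), with 4 of 9 in the NADH-oxidising N module and 2 of 6 in the quinone-reducing Q module. In H187 these counts were 4 of 19 (21.1%), 3 of 9 (33.3%) and 1 of 6 (16.7%), so the membrane arm did not have the largest share there. Accessory genes fell in 7 of 27 cases there (25.9%) and core genes in 1 of 7 (14.3%). Of all genes tested, 22.5% fell in H209 and 12.7% in H187. The difference between these groups of subunits was not tested.

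NDUFA2, an accessory subunit of the N module, changed in opposite directions. Its DMSO libraries read 46.6, 43.5 and 38.8 CPM in H187, and the treated ones 35.3, 35.3 and 39.2. In H209 it went from 41.5, 39.3 and 42.5 to 34.8, 34.3 and 35.2 CPM, with no overlap, while in H187 the third treated library lay within the control range. In H82 it rose from 25.3, 29.4 and 26.2 to 37.2, 30.5 and 31.6 CPM, also with no overlap. The log2 fold changes were -0.23 ± 0.06 in H187 (SE, edgeR adjusted p = 0.011), -0.23 ± 0.05 in H209 (adjusted p = 4.3e-05), 0.31 ± 0.07 in H82 (adjusted p = 0.021) and 0.04 ± 0.05 in SHP-77 (adjusted p = 0.76). The H187 call was lost without the first DMSO or the first treated library, and the H82 call without the first DMSO, the first treated or the third treated library (largest adjusted p = 0.073 and 0.17).

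NDUFA13, a membrane arm subunit, fell in H209 and rose in both ISL1-low lines. The H209 libraries went from 120, 111 and 110 to 102, 101 and 104 CPM. In H82 they went from 174, 188 and 195 to 215, 204 and 210 CPM, and in SHP-77 from 160, 155 and 148 to 164, 164 and 170. In none of these 3 lines did treated and control libraries overlap. The fold changes were -0.15 ± 0.03 (edgeR adjusted p = 0.00038), 0.18 ± 0.04 (0.027) and 0.11 ± 0.03 (0.047), and -0.07 ± 0.05 (0.34) in H187, where the libraries overlapped. A correction for transcript GC content ended the H82 and SHP-77 calls (0.09 and 0.06, adjusted p = 0.31 and 0.21) and gave a call in H187 (-0.15, adjusted p = 0.013). In all, the SHP-77 call was lost in 9 of 15 alternatives, 5 of them left-out libraries, and the H82 call in 5 of 15, 4 of them left-out libraries.

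NDUFB4 and NDUFS5, accessory subunits of the membrane arm, fell in both ISL1-high lines. NDUFB4 went from 120, 116 and 118 to 99.7, 103 and 107 CPM in H187 (-0.20 ± 0.04, edgeR adjusted p = 0.0025) and from 91.6, 85.8 and 89.3 to 70.9, 73.5 and 74.8 in H209 (-0.28 ± 0.04, adjusted p = 1.6e-08). NDUFS5 went from 50.8, 51.3 and 54.4 to 41.5, 46.9 and 45.4 CPM in H187 and from 96.9, 87.8 and 95.0 to 77.6, 76.7 and 78.2 in H209. All treated libraries lay below all controls for both genes in both lines. NDUFS4, an accessory subunit that joins the N and Q modules, was the only member called lower in H187 and not in H209: it went from 45.2 to 38.6 CPM there (-0.23 ± 0.05) and had a fold change of 0.05 ± 0.07 in H209. NDUFV3, a small N module subunit, rose in H187 from 34.4, 35.2 and 34.4 to 38.2, 37.8 and 38.7 CPM (0.14 ± 0.05, adjusted p = 0.035), and that call was lost in 7 of 15 alternatives, including DESeq2 and 5 of the 6 left-out libraries (largest adjusted p = 0.13). NDUFB5 of the membrane arm was the member that fell in SHP-77, from 107, 110 and 113 to 101, 100 and 100 CPM (-0.13 ± 0.03, adjusted p = 0.011), a call lost in 4 of 15 alternatives (largest adjusted p = 0.11).

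**Figure D3:**
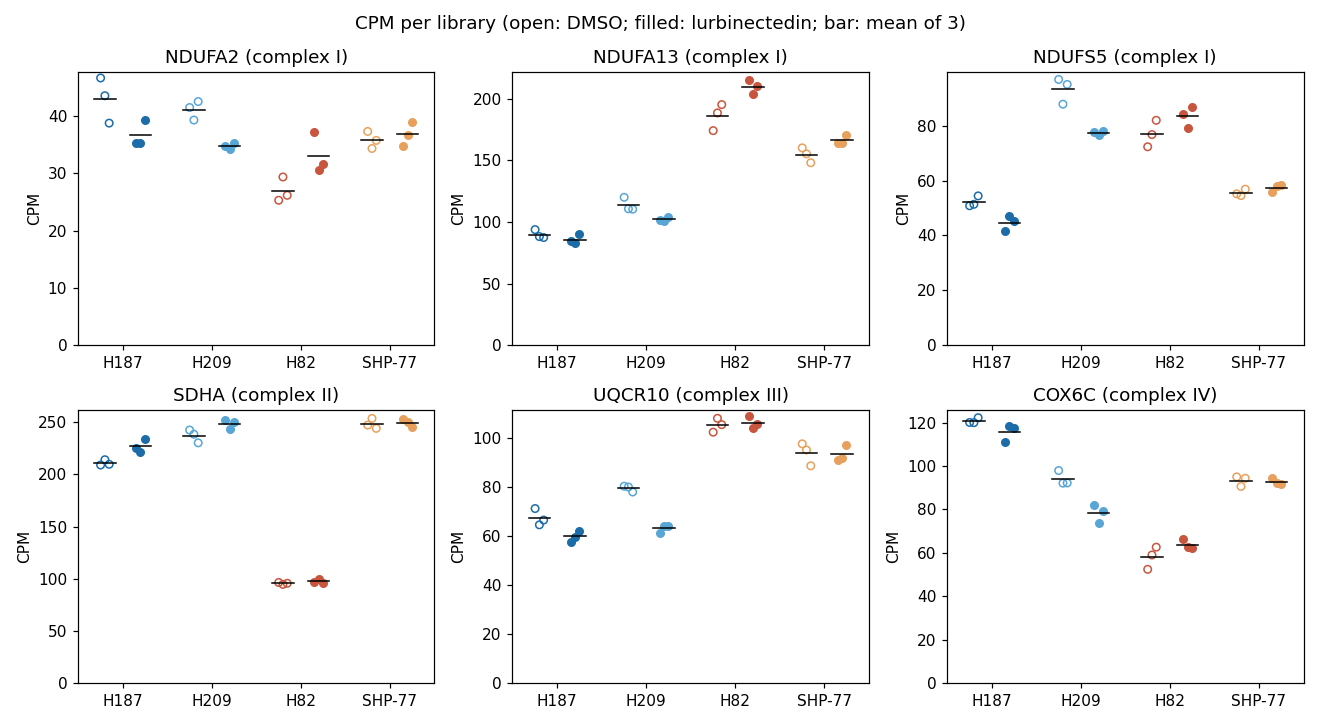
CPM per library for 6 members, with open points for DMSO, filled points for lurbinectedin and a bar at the mean of 3. NDUFS5 and UQCR10 are lower in every treated library of H187 and H209, and NDUFA2 and NDUFA13 are higher in every treated library of H82.

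Of the 4 complex II genes, SDHC was the one that fell. SDHC, a membrane anchor that holds heme and the quinone site, fell from 169, 155 and 165 to 136, 146 and 145 CPM in H187 (-0.20 ± 0.04, edgeR adjusted p = 0.0024) and from 124, 122 and 123 to 102, 102 and 104 in H209 (-0.26 ± 0.03, adjusted p = 3.7e-09). The treated libraries lay below the controls in both lines. SDHA went the other way in H187, from at most 214 CPM under DMSO to 225, 222 and 234 when treated (0.11 ± 0.04, adjusted p = 0.045), without overlap, and the call was lost in 9 of 15 alternatives, among them each of the 6 left-out libraries (largest adjusted p = 0.22). In H209 SDHA had 0.07 ± 0.03 (adjusted p = 0.051). SDHD, the other membrane anchor, and SDHB were called in no line. The summed complex II level overlapped between treated and control libraries in H187, H209 and H82 (-2.06%, -1.63% and -1.68%). In SHP-77 it went from 616 ± 2.15 to 602 ± 2.08 CPM (-2.29%) without overlap, though none of the 4 genes was called there.

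In complex III, 4 of 10 genes fell in H209 and 2 of 10 in H187. UQCR10, a small accessory subunit, went from 71.1, 64.5 and 66.4 to 57.6, 59.5 and 62.2 CPM in H187 and from 80.2, 79.9 and 77.8 to 61.1, 64.0 and 64.0 in H209. No treated library reached a control, and the fold changes were -0.17 ± 0.05 (edgeR adjusted p = 0.011) and -0.33 ± 0.04 (adjusted p = 3.1e-10). The H187 call was lost without the first DMSO or the first treated library (largest adjusted p = 0.074). UQCR11, another small subunit, fell in both lines (-0.14 and -0.12), and UQCRB and UQCRQ, both near the quinone sites, fell in H209 (-0.16 and -0.19). The core proteins UQCRC1 and UQCRC2, the Rieske iron-sulfur protein UQCRFS1, and the accessory subunit UQCRH with its copy UQCRHL were called in no line, and neither was UQCRBP1, with values of -0.19 to 0.48 at about 1 CPM.

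All 11 complex IV genes fell in H209, with a median of -0.21, and 7 of 11 fell in H187 (median -0.13). These nuclear subunits surround a catalytic core encoded in mitochondrial DNA. COX7B fell from 44.8, 46.8 and 47.1 to 35.7, 36.2 and 41.2 CPM in H209 (-0.29 ± 0.05, edgeR adjusted p = 2.0e-06), and COX6B1, which faces the intermembrane space, from 115, 111 and 114 to 93.7, 90.6 and 97.4 (-0.26 ± 0.03, adjusted p = 7.8e-09). COX6C went from 94.1 ± 3.33 to 78.4 ± 4.23 CPM in H209 (-0.26 ± 0.04). Treated and control libraries of these 3 genes did not overlap in H209. COX6A1, the most abundant, went from 232, 223 and 228 to 204, 197 and 210 CPM there (-0.15 ± 0.03) and was not called in H187 (-0.07 ± 0.05). Besides COX6B1 and COX7B, the genes called lower in H187 were COX4I1, COX5B, COX7C, COX8A and NDUFA4, at -0.13 to -0.18. There the COX7B call was lost in 9 of 15 alternatives, including DESeq2 and the length correction (largest adjusted p = 0.48), and the COX6B1 call in 3 of 15 (largest adjusted p = 0.17). The complex IV sum dropped by 12.2% in H209 and by 8.25% in H187, and it overlapped between groups in H82 and SHP-77.

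In complex V, 16 of 20 genes fell in H209 and 6 of 19 in H187. ATP5F1B, the catalytic subunit, went from 1241, 1211 and 1220 to 1070, 1089 and 1124 CPM in H187 (-0.16 ± 0.03, edgeR adjusted p = 0.00090) and from 780, 745 and 760 to 696, 719 and 704 in H209 (-0.10 ± 0.03, adjusted p = 0.00079), with no overlap. ATP5F1A, the partner alpha subunit, was called in no line. By position, 4 of 4 peripheral stalk genes, 3 of 3 c-ring genes, 5 of 5 supernumerary membrane genes and 2 of 5 F1 genes fell in H209, where 68.4% of all members fell. Members outside these positions, such as ATP5S, are not in these counts. In H187 the counts were 2 of 4, 1 of 3, 2 of 5 and 1 of 5, and differences between these small groups were not tested. ATP5ME went from 36.8, 34.4 and 32.9 to 27.3, 28.2 and 27.9 CPM (-0.32 ± 0.05) in H209 and from 57.6, 68.4 and 64.2 to 53.3, 54.9 and 55.9 in H187 (-0.21 ± 0.05). Its H187 call was lost without the second DMSO library and with the length correction (largest adjusted p = 0.17). ATP5PB, the stalk b subunit, fell by 0.20 in H187 and by 0.17 in H209 on the log2 scale. ATP5F1D, the delta subunit of the rotor stalk, rose in H82 from between 54.4 and 71.9 to between 69.0 and 80.3 CPM, with overlap (0.31 ± 0.07, adjusted p = 0.024), a call lost in 6 of 15 alternatives, including DESeq2 (adjusted p = 0.28). ATP5MGL, near the detection limit, had 0.902, 0.485 and 0.860 CPM against 0.353, 0.364 and 0.534 in H209 (-0.80 ± 0.35, adjusted p = 0.055).

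Of the 24 members that fell in H187, 23 also fell in H209, which is 95.8% of the H187 list and 42.6% of the H209 list. The fold change was negative in both lines for 66 members. Across the 78 members the fold changes of the 2 lines had a Pearson r of 0.366, a description over genes that share libraries. The 19 members called in no line held core complex I subunits such as NDUFS1 and NDUFV1, SDHB and SDHD, UQCRC1, UQCRC2 and UQCRFS1, ATP5F1A, and also accessory subunits such as NDUFA12 and NDUFB10.

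The response itself differed between the classes for most members. When the average effect in both ISL1-high lines was set against the average in both ISL1-low lines, 50 of 78 members had a lower response in the ISL1-high lines and 0 a higher one (median -0.17), beside 15.5% lower and 15.9% higher of all 11408 genes tested (median 0.00). The lowest p-values were those of NDUFB4 (-0.28 ± 0.04, edgeR adjusted p = 1.9e-07), NDUFS5 (-0.33 ± 0.05, 1.1e-06), NDUFA2 (-0.40 ± 0.07, 8.1e-06), UQCR10 (-0.25 ± 0.04, 8.2e-06) and NDUFA13 (-0.25 ± 0.04, 1.9e-05). All 11 complex IV genes were called, with 21 of 34 in complex I, 1 of 4 in complex II (SDHC), 4 of 10 in complex III and 13 of 19 in complex V. In complex I, 19 of 27 accessory and 2 of 7 core genes were called. This test uses the same libraries as the line comparisons, and the lines of a class are fixed, so it describes these 4 lines. Members with NRF1 letters in the promoter were called in 10 of 13 cases and those without in 31 of 49, with median differences of -0.15 and -0.17.

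**Figure D4:**
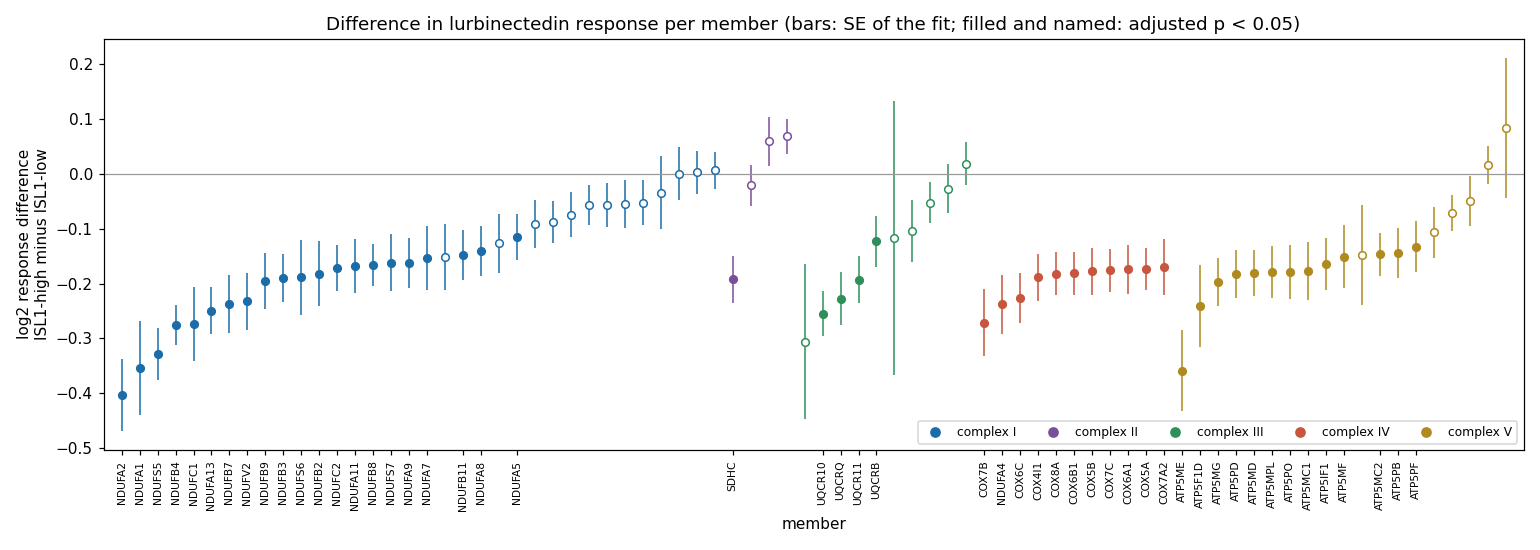
Log2 response difference, ISL1-high minus ISL1-low, for 78 members ordered within each complex, with SE bars and filled points for adjusted p under 0.05, which alone carry their gene names. The 11 complex IV points lie between -0.27 and -0.17, and NDUFA2 is lowest at -0.40.

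Respiratory genes have short transcripts, and the medians of other short genes also stood below the DMSO mean in treated H187 and H209, by less. The median exonic length was 959 bases over members and 3267 over all listed genes. In each library the median deviation of the members from the DMSO mean of their line ran beside that of 333 other genes under 1000 bases and at 10 CPM or more. Among DMSO libraries of H187 the members stood at 0.05, -0.03 and -0.01 (log2) and the other short genes at 0.06, -0.05 and -0.02. In treated H187 the members stood at -0.14, -0.09 and -0.07 and the other short genes at -0.09, -0.04 and -0.01, and in treated H209 at -0.18, -0.16 and -0.14 against -0.08, -0.06 and -0.06. Members were thus lower than the other short genes in all 6 treated libraries of these lines, by 0.05 to 0.10. In H82 and SHP-77 both sets lay between -0.04 and 0.08 and differed by at most 0.02.

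**Figure D5:**
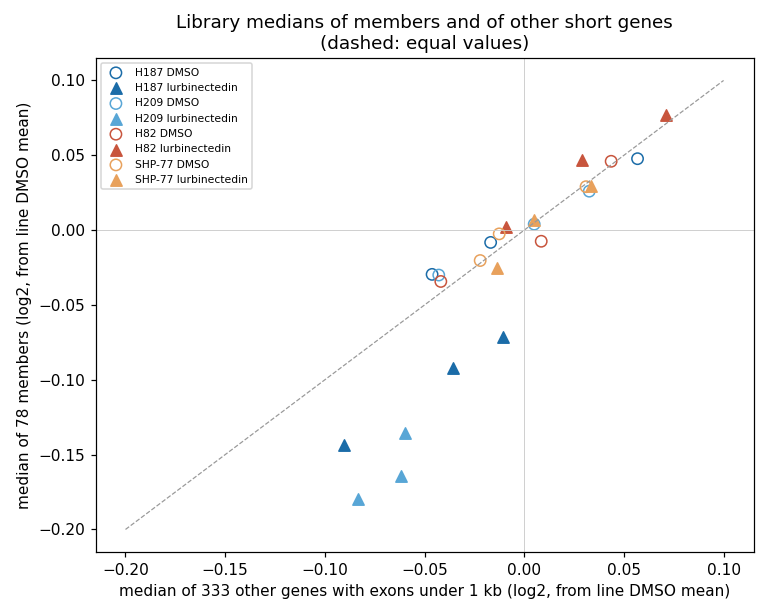
Median log2 deviation of 78 members (vertical) against that of 333 other genes with under 1000 exonic bases (horizontal), per library, from the DMSO mean of its line. The DMSO libraries and those of H82 and SHP-77 lie near the dashed line of equal values, and the 6 treated libraries of H187 and H209 lie below it.

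Within length classes the members stood lower than other genes in H187 and H209. Among genes under 1000 bases in H209, 69.8% of 43 members and 18.2% of 906 other genes fell, with medians of -0.19 and -0.04. Among genes of 2000 bases or more there, 64.7% of 17 members and 23.8% of 11063 others fell, with medians of -0.16 and 0.00. In H187 the shares under 1000 bases were 31.0% and 8.75%. Other short genes fell less often than all genes tested, of which 22.5% fell in H209 and 12.7% in H187. In the ISL1-low lines the members under 1000 bases did not stand lower. Their medians were 0.07 against 0.04 for other genes in H82 and 0.02 against 0.01 in SHP-77. After a correction for exonic length within each library, added after the data were seen, 52 members fell in H209 (median -0.13), 17 in H187 (median -0.06), and 39 differed in response (median -0.10). In H187 the number that fell was 13 without the first DMSO library and 12 without the first treated one. The part of transcript length in these results beyond that correction was not tested.

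The counts for other mitochondrial gene lists stand beside 12.7% lower and 12.2% higher of all genes in H187 and 22.5% and 22.7% in H209. Some are near those shares and others are not. Of 74 mitochondrial ribosomal protein genes, 19 fell (25.7%) and 13 rose in H209 and 6 fell (8.11%) and 2 rose in H187, with a median of -0.03 in each. MRPL47 fell in H187 from 51.3 ± 4.48 to 41.6 ± 2.55 CPM (-0.30 ± 0.06), and MRPS31 rose in H209 from 19.8 ± 0.628 to 25.7 ± 1.38 (0.38 ± 0.06). Among 24 complex IV assembly genes, 7 fell (29.2%) and 0 rose in H187, where 30.8% of members fell. In H209, 4 of them fell (16.7%) and 2 rose. COX17, a copper chaperone of complex IV, fell in H209 by 0.38 and COX19 rose by 0.49. Of 16 complex I assembly genes, 3 fell (18.8%) and 2 rose in H187 and 5 fell (31.2%) and 2 rose in H209. NUBPL, an iron-sulfur cluster factor for complex I, fell in 3 lines, by 0.72 in H187, 0.51 in H209 and 0.21 in SHP-77, from 18.6 ± 0.573 to 11.3 ± 0.346 CPM in H187. Complex II and III assembly factors had 2 of 10 lower in H187, and 1 lower and 2 higher in H209, with LYRM7 lower in both (-0.17 and -0.24). For ATP synthase assembly, 2 of 4 rose in H209, TMEM70 (0.18) and ATPAF1 (0.11).

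Genes around the respiratory chain were mixed. NDUFAB1, the mitochondrial acyl carrier protein that is also a complex I subunit, fell in H187 from 45.1 ± 2.34 to 39.9 ± 0.304 CPM and in H209 from 50.4 ± 0.981 to 40.1 ± 2.00. NDUFA4L2, a paralog of NDUFA4, rose from 1.55 ± 0.0901 to 2.52 ± 0.289 CPM in H187 (0.70 ± 0.19) and from 4.34 ± 0.358 to 6.22 ± 0.149 in H209 (0.52 ± 0.11), and CYC1, the cytochrome c1 of complex III, was called in no line (-0.08 to 0.04). Of 13 genes for electron carriers and ubiquinone synthesis, 3 fell and 1 rose in H187 and 3 fell and 2 rose in H209; COQ8A rose in both (0.22 and 0.36), and PDSS2 fell in H187, H82 and SHP-77. Among 19 regulators of mitochondrial biogenesis and DNA expression, 0 were called in H187, while 5 rose and 2 fell in H209. PPARGC1A, which encodes the coactivator PGC-1alpha, rose in H209 from 4.41 ± 0.269 to 8.45 ± 0.567 CPM (0.95 ± 0.11), and stood at 105 ± 4.31 CPM in H187, where no change was called. YY1 rose in H209 (0.19), and GABPA fell in H82 (-0.18). Of 18 tricarboxylic acid cycle genes, 5 fell and 2 rose in H187 and 8 fell and 5 rose in H209, with IDH2 at 0.17 and SUCLG2 at -0.64 in H187. Glycolysis had 3 of 20 higher and 2 lower in H187, and 3 of 21 higher and 10 lower in H209, with HK1 at -0.22 and PGK1 at -0.18. Protein import into mitochondria had 1 of 22 higher and 3 lower in H187 and 3 higher and 7 lower in H209, with TIMM44 at 0.41 and TOMM22 at -0.21. In H209 the shares that fell were 44.4% for the tricarboxylic acid cycle, 47.6% for glycolysis and 31.8% for import, beside 22.5% of all genes. In H187 they were 27.8%, 10% and 13.6%, beside 12.7% of all genes.

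Exons of 33 members overlap another annotated gene (GENCODE), 17 of them on the same strand and 0 with a same-strand gene listed in the tables. The library kit keeps strand, but the strand setting of the counting is not given in the sources used here, so the levels of overlapping members are uncertain. On simulated counts, fold changes the size of a 15% rise were recovered for 19.4% (SHP-77) to 22.4% (H82) of changed genes per line. For the size of a 50% rise the rates were 92.5% to 97.0%. These rates are over genes of all levels and do not describe the members in particular. The simulation changed far fewer genes than were called in H187 and H209 and gave every gene the same variability. The rates thus do not give the power of the fits to the real counts. Falls were not scored separately, so the rates do not show which falls these libraries could detect.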

How the data were processed

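The members and gene lists were chosen with earlier results of these data known. Gene-level counts of raw reads were deposited by the authors in 1 table per line. Per the submitters' processing notes they used STAR 2.7.10a, featureCounts, Subread 2.0.3 and edgeR 4.2.0 on hg38; the gene annotation used and any low-count filter are not given in the sources used here. The deposited tables also hold the authors' log2 fold changes and their p-value and FDR columns, used only as an alternative source of calls. RNA came from RNeasy columns and ribosomal RNA-depleted total RNA libraries, per the labels' protocols. The design text calls the triplicates biological and says no more of their origin, so p-values measure the spread between these samples. The deposited gene length equals merged exon length and served for levels per kb.

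The main tests used edgeR 4.0.16 under R 4.3.3, with filterByExpr (minimum count 10, total 15), TMM, glmQLFit, glmQLFTest and Benjamini-Hochberg adjustment at 0.05, over all genes of each table, on 6 libraries per line, 24 for the response and 12 for DMSO levels. Genes in all 4 tables (11408) entered the latter fits. Alternatives were RLE scaling, no filter, a mean of 1 CPM, DESeq2 1.42.0, a replicate block, 1 fit of all libraries, the authors' calls and leaving out each library. Corrections for transcript GC and exonic length (lowess, span 0.3) were added after seeing the data. Named members were the up to 6 smallest p-values per line and direction, the 5 of the response, members called in opposite directions or in 3 lines, the 8 widest DMSO ranges, the extremes per kb of each complex and members not in every table. From each list, up to 2 genes per line were eligible, and some of these are left out here. NDUFAB1, NDUFA4L2, CYC1, PPARGC1A and the further members listed by name beside a count were chosen after their values were seen. The fits were tested on simulated data. A member that counts in the totals is not reported by name here.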

Additional observations from a re-analysis of the deposited data

Results flagged for a closer look

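The response to lurbinectedin differed between ISL1-high and ISL1-low lines for 50 members, by edgeR's quasi-likelihood test of the difference itself, beside the 15.5% of all genes with a lower response. The 5 with the smallest p-values were NDUFA2 at -0.40, NDUFS5 at -0.33, NDUFB4 at -0.28, UQCR10 at -0.25 and NDUFA13 at -0.25 on the log2 scale, each lower in the ISL1-high lines. For NDUFA2 the 2 classes had calls in opposite directions, lower in H187 and H209 and higher in H82. The H82 call was lost in 3 of 15 alternatives and the H187 call in 2. For NDUFA13 the calls were lower in H209 and higher in H82 and SHP-77, and the latter were lost in 5 and 9 of 15 alternatives.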

How the results depend on the processing

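The lower calls in H209 stayed at 49 to 55 and those of the response at 45 to 53 on leaving out each library, and no named member reversed. Named calls were kept under every alternative for 16 of 18 in H209, 12 of 15 in the response, 21 of 26 in the class difference, 6 of 14 in H187, 0 of 3 in H82 and 0 of 2 in SHP-77. In H187 the lower count was 38 with the GC correction and 12 to 28 on leaving out each library, lowest without the first treated (12) and the first DMSO library (13); its median ran from -0.118 to -0.066 and was -0.058 with the length correction, against -0.13 in H209 and -0.10 for the response. The H187 higher count was 1 in DESeq2, the authors' deposited table and the length correction and 0 to 1 without a library. The H209 higher count was 1 with a mean of 1 CPM, in DESeq2 and with the GC correction, and 0 to 1 without a library. The class median was -0.017 with the length correction.

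The sources used here do not say whether the replicate numbers pair samples. Within a line, treated and control libraries were compared by their deviations from their group means. These correlated at -0.16 to 0.08 for the same number and -0.12 to 0.19 for different numbers, which does not settle the pairing. With a replicate block, 16 members were lower and 0 higher in H187, 6 higher in H82 and 0 higher in SHP-77.

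In H82 the higher count was 0 without DMSO replicate 1 or treated replicate 3, 1 without treated replicate 1 and 13 without DMSO replicate 3 (range 0 to 13), where 1 was lower (range 0 to 1). All calls in H82 (395) were 755 with the block, 652 in the authors' deposited table, 225 with the GC correction and 643 in 1 fit, and 93 to 1397 without a library, lowest without treated replicate 1 or 3. The share of these calls that were higher was 52.9%, 18.7% with the GC correction, 63.7% with the length correction and 42.0% in 1 fit. In SHP-77 the higher count was 0 in DESeq2, with the GC correction and in 1 fit, where 0 were lower, and 0 to 2 without a library (lower 0 to 1); all calls (737) were 451 in 1 fit and 417 to 706 without a library, lowest without the first treated. The cause of these shifts was not tested. Members at about 1 CPM, such as UQCRBP1 and ATP5MGL, are limited by depth.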
